A study of Mus musculus with 6 samples.

Results

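S100 proteins are small calcium sensors of the EF-hand class, and the transcripts of 10 of their genes were followed here in mouse subcutaneous white adipose tissue (scWAT). The genes *S100b*, *S100a1*, *S100a4*, *S100a6*, *S100a8*, *S100a9*, *S100a10*, *S100a11*, *S100a13* and *S100a16* were chosen by symbol out of 55401 genes in the count files. RNA-seq was performed on scWAT of male mice aged 8 weeks, with 3 mice per genotype. Control mice carried floxed alleles of both *Yap* and *Taz* (*Yap* fl/fl;*Taz* fl/fl) and no Cre, and are called YT-FF, although the sample labels call them WT. Mice labelled YT-AKO had the same floxed alleles plus *Adipoq*Cre (Yapfl/fl/Tazfl/fl;AdipoqCre). The *Adipoq* promoter drives Cre in mature adipocytes, so that fibroblasts, immune cells, vessels and nerves of the tissue keep both genes.

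Most S100 proteins form dimers, bind calcium and then expose a surface that grips a target protein. Inside cells they act on annexins, the cytoskeleton and enzymes, and several are also released and engage receptors such as RAGE. S100B is best known from glia and Schwann cells, and adipocytes also make it and release it as a factor that acts on nerves. S100A8 and S100A9 together form calprotectin, an abundant protein of neutrophils. In bulk tissue, a change in the number of cells of a type and a change in RNA per cell cannot be told apart.

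*S100b* (ENSMUSG00000033208) lies on mouse chromosome 10, at chr10:76253853-76261159 of mm10 on the plus strand, in 3 exon blocks. The other 9 genes lie on chromosome 3, and 7 of them, from *S100a1* to *S100a9*, fall within 184.7 kb. Sequence upstream of *S100b* is shown because the study reported binding of the factors C/EBPβ and PRDM16 at this promoter in cultured beige adipocytes. The sequence was taken from the RefSeq promoter table (GRCm38.p6, plus strand). The capitals mark the CCAAT box on either strand, at 202 and 20 bases before the RefSeq start.
*S100b* promoter, chr10:76253586-76253835: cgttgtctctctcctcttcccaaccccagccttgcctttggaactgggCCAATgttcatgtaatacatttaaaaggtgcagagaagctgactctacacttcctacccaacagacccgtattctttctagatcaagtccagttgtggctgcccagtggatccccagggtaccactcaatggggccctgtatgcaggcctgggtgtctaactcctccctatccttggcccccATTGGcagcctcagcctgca

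Promoter windows of 300 bases were held for 9 of the 10 genes, *S100a10* being the one without. The C/EBP motif TTGCNNAA was searched on both strands and was present in 10.8% of all 32851 RefSeq windows. Of the S100 genes only *S100a9* had it, 236 bases before its start. The TEAD motif GGAATG, found in 14.7% of all windows, was in none of the 10 windows of these genes. CCAAT was in 37.4% of all windows and in those of *S100b* and *S100a6*, and TATAAA was in 13.6% of all windows and in those of *S100a4*, *S100a8* and *S100a9*. The TATAAA match of *S100a9* lay 0 bases before its start. A match describes these letters only, and a window without a match says nothing about the factor. The 3 sites below are shown because these low genes hold motifs that were not matched in the *S100b* window. The capitals mark the C/EBP motif in *S100a9* (minus strand) and the TATA box in *S100a4* and *S100a8* (plus strand), which stood 31 and 30 bases before the start.
*S100a9* site, chr3:90695940-90695967: gtaggctgtcTTGCTTAAgatttgggcg
*S100a4* site, chr3:90603727-90603756: ggcctggcagggTATAAAtaggtcagattg
*S100a8* site, chr3:90669029-90669058: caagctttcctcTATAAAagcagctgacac

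The libraries held between 17740987 and 21838493 counted fragments. A filter on low counts kept 16807 genes, which were tested for a difference between genotypes by edgeR (quasi-likelihood, Benjamini-Hochberg adjustment). At an adjusted p under 0.05, 2121 genes were called higher and 1515 were called lower. With library totals in place of TMM factors the split was 1137 higher and 2828 lower, with the median log2 fold change of all genes at −0.34 instead of −0.02, and with limma-trend on TPM it was 483 higher and 4016 lower. The targeted gene *Yap1* fell to 0.508 of its control level (adjusted p = 0.0179), with 69.1, 57.1 and 66.7 CPM (counts scaled by the TMM-normalized library size) in the controls and 37.7, 29.0 and 31.3 CPM in YT-AKO. *Wwtr1*, which encodes TAZ, went against the label and rose 1.86-fold (adjusted p = 0.0220), from 77.5, 76.0 and 98.8 CPM to 175, 133 and 161 CPM. In TPM the groups overlapped, with 62.3, 62.8 and 74.5 in YT-FF and 102, 48.7 and 91.3 in YT-AKO. By immunoblot, the study found a clear decrease of YAP and TAZ protein in scWAT of YT-AKO mice. Counts over whole genes do not show the loss of single exons, and every direction below refers to the libraries labelled YT-AKO against YT-FF.

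Most of the S100 genes had a higher level in the YT-AKO libraries. Of the 10 genes, all passed the filter, 6 rose (*S100b*, *S100a1*, *S100a6*, *S100a10*, *S100a13* and *S100a16*), none fell (with edgeR or DESeq2, and 0 at an unadjusted p under 0.05), and 4 did not pass the test. Of all tested genes, 12.6% were called higher and 9.01% lower. The study singled out *S100b* from these same libraries, so its rise here is not independent evidence. Beyond these libraries, the study reported the induction by RT-qPCR and immunoblot of scWAT, and in mature adipocytes separated from the tissue. The median log2 fold change was 1.71 over the 10 genes and −0.02 over all tested genes, and that of the 10 was 1.02 without YT-AKO 2. In 6 of the 10 genes every YT-AKO library lay above every YT-FF library in CPM, which held for 25.7% of tested genes, while 25.8% lay below without overlap. At the stricter threshold of the study, an adjusted p under 0.01 with a log2 fold change beyond 1, edgeR called *S100b* alone of the members. It called 0.0892% of tested genes higher and 0.0357% lower. With DESeq2, the tool of the study, *S100a1*, *S100a6*, *S100a10*, *S100a13* and *S100a16* passed this threshold as well as *S100b*. Their adjusted p was 0.00666 or less. The share of all genes that passed it with DESeq2 was not counted. All 10 point estimates were positive, but that of *S100a11* turned to −0.24 with limma-trend on TPM. In that fit the median log2 fold change of all tested genes was −0.71. Fewer calls were made when a control library was left out, for the members and for all tested genes. Without YT-FF 1 or without YT-FF 2 edgeR called 0 of the 10 (6 and 8 of them at an unadjusted p under 0.05), with 0% of all tested genes called higher in both fits, and without YT-FF 3 it called 1. With all libraries 7 of the 10 had an unadjusted p under 0.05, against 22.2% of tested genes in the higher direction and 18.6% in the lower.

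**Figure D1:**
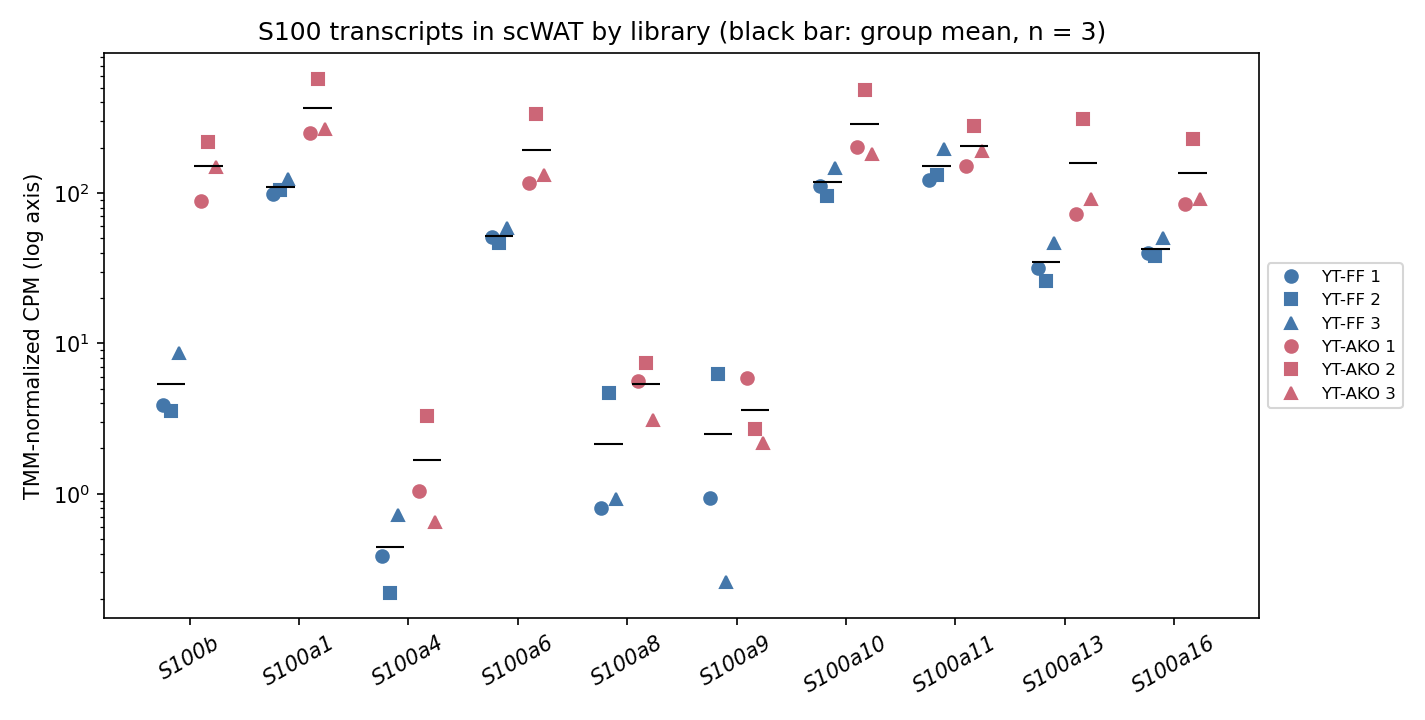
TMM-normalized CPM (log axis) of the 10 S100 genes in each of the 6 libraries, with YT-FF in blue, YT-AKO in red, a symbol for each replicate number and a black bar at the group mean (n = 3). The S100b points rise from between 3.56 and 8.65 CPM to between 89.1 and 218 CPM, and the YT-AKO 2 point is the highest of its group in 9 of the 10 genes.

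*S100b* had the largest log2 fold change of the 10 genes. Its transcript counted 92, 81 and 168 fragments in YT-FF 1, 2 and 3, and 1533, 3700 and 2501 in YT-AKO 1, 2 and 3. In CPM these were 3.92, 3.56 and 8.65 against 89.1, 218 and 148. The lowest YT-AKO library thus stood above the highest control by a wide margin, and YT-FF 3 was the highest control. The mean went from 5.38 ± 2.84 to 152 ± 64.6 CPM (SD, n = 3), and edgeR gave a log2 fold change of 4.82 ± 0.482 (SE, adjusted p = 0.00851), with a 95% confidence interval of 3.71 to 5.94. This is 28.3-fold, and 0.0238% of tested genes had a larger log2 fold change. Leaving out single libraries kept the estimate between 4.47 and 5.34, but the adjusted p was 0.0870 without YT-FF 1 and 0.0787 without YT-FF 2.

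Genes beside *S100b* changed in both directions. *Prmt2*, an arginine methyltransferase gene ending 15988 bp to its left, rose from 17.5 ± 2.26 to 29.8 ± 4.43 CPM (SD, n = 3), without overlap and with a log2 fold change of 0.77 ± 0.184 (SE, adjusted p = 0.0296). *Dip2a* on its right, on the opposite strand, overlaps the end of *S100b* in span but not in exon bases. It had 30.9, 33.9 and 31.8 CPM in YT-FF and 23.1, 13.9 and 30.8 CPM in YT-AKO, and its log2 fold change of −0.51 ± 0.272 (SE) did not pass the test (adjusted p = 0.194). *Pcnt*, the next gene on the right, which encodes pericentrin and was named after its values were seen, fell without overlap (−0.93 ± 0.183 SE, adjusted p = 0.0208).

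Among the chromosome 3 genes, *S100a13* and *S100a1* start head to head. *S100a13* takes part in the release of growth factors that lack a signal peptide, and *S100a1* is the S100 protein of heart and skeletal muscle. The 42 bases between the annotated ends of the pair are shown (GRCm38, plus strand, no capitals) because both genes, one on each strand, rose.
Gap between *S100a1* and *S100a13*, chr3:90514393-90514434: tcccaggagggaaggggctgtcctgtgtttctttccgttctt

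*S100a1* measured 99.1, 105 and 123 CPM in the controls, and 251, 576 and 268 CPM were found in YT-AKO. The groups did not overlap, and YT-AKO 2 stood well above the others. The log2 fold change was 1.74 ± 0.334 (SE, adjusted p = 0.0203 by edgeR). For *S100a13* the values were 31.7, 26.0 and 46.2 CPM against 72.4, 313 and 91.9 CPM, again without overlap and with YT-AKO 2 far above its group. Its log2 fold change of 2.20 ± 0.556 (SE, adjusted p = 0.0333) was the second largest among called members, and it was 1.25 without YT-AKO 2. The log2 ratio of *S100a1* to *S100a13* in TPM was 1.73 ± 0.299 in YT-FF and 1.45 ± 0.472 in YT-AKO (SD, n = 3, exact two-sided permutation p = 0.5), so a shift in the balance of the pair was not detected.

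*S100a6*, or calcyclin, which binds calcyclin binding protein and annexins, had 51.0, 46.2 and 58.3 CPM in the controls and 117, 334 and 132 CPM in YT-AKO. Its log2 fold change was 1.91 ± 0.399 (SE, adjusted p = 0.0232). *S100a16*, a broadly expressed member, had 39.8, 38.1 and 49.8 CPM against 84.1, 230.1 and 91.1 CPM, a log2 fold change of 1.67 ± 0.391 (SE, adjusted p = 0.0280). In both genes the 3 YT-AKO libraries were the highest of the 6 and YT-AKO 2 was the highest of all, and without it the log2 fold changes were 1.26 and 1.04. *S100a10*, which pairs with annexin A2 and has lost the ability to bind calcium, had 111, 95.8 and 147 CPM against 202, 481 and 183 CPM. The groups did not overlap, and its log2 fold change of 1.29 ± 0.386 (SE) lay at the edge of the call (adjusted p = 0.0496), and it was 0.70 without YT-AKO 2. The call was lost with limma-voom (adjusted p = 0.0522), with RLE size factors (adjusted p = 0.0530), upper-quartile normalization (adjusted p = 0.0506) or library totals in edgeR (adjusted p = 0.0652), and with a correction for GC content (adjusted p = 0.0641) or gene length (adjusted p = 0.10). It was also lost with limma-trend on TPM (adjusted p = 0.153), with the replicate number as a block (adjusted p = 0.107, or 0.181 with length correction) and with any YT-FF library left out (adjusted p between 0.0863 and 0.180). With DESeq2 it was kept (adjusted p = 0.00666), in a fit that called 18.1% of all genes higher, 14.3% lower and 6 members higher.

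*S100a11*, a partner of annexin A1, was not called. It had 123, 132 and 196 CPM in YT-FF and 150.5, 279 and 189 CPM in YT-AKO. The ranges overlapped, and the log2 fold change was 0.46 ± 0.280 (SE, adjusted p = 0.249), with a 95% confidence interval of −0.19 to 1.11. The processed copy *Gm12854* shares 41.1% of the 50-base words of *S100a11* and held 34 to 89 counts per library, and fragments that fit both places were not counted, so the level of *S100a11* is uncertain.

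The remaining 3 genes, associated with immune or stromal cells, had few counted fragments. *S100a8* had 0.810, 4.66 and 0.927 CPM in YT-FF and 5.58, 7.43 and 3.07 CPM in YT-AKO. *S100a9* had 0.938, 6.28 and 0.257 CPM against 5.93, 2.71 and 2.19 CPM. YT-FF 2 was the highest control for both calprotectin genes, and the groups overlapped. The log2 fold changes were 1.32 ± 0.695 (SE, adjusted p = 0.188) for *S100a8* and 0.53 ± 0.954 (SE, adjusted p = 0.701) for *S100a9*. Without YT-FF 2 they were 2.61 and 2.55, and without YT-AKO 1 that of *S100a9* was −0.022, so the size for both genes, and the sign for *S100a9*, changed with single libraries. With each library left out in turn *S100a8* stayed between 0.93 and 2.61. *S100a4*, a partner of non-muscle myosin made by fibroblasts and macrophages, counted 9, 5 and 14 fragments against 18, 56 and 11, with overlap and a log2 fold change of 1.92 ± 0.743 (SE, adjusted p = 0.0941). It was 0.95 without YT-AKO 2 and 2.44 without YT-FF 3. The count of *S100a4* is a lower limit, because *Gm42674* on the same strand covers 51.7% of its exon bases and fragments on bases of both genes were left out.

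**Figure D2:**
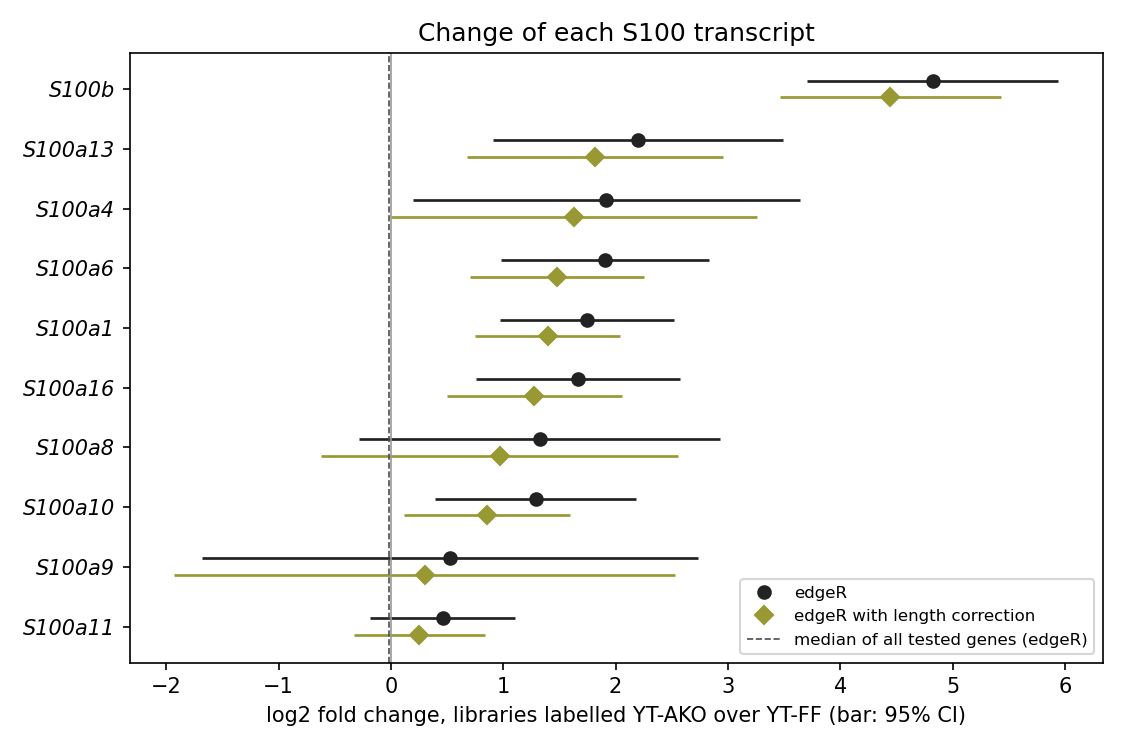
Log2 fold change of each S100 gene (x axis, libraries labelled YT-AKO over YT-FF) with its 95% confidence interval as a bar, from edgeR (black circles) and from edgeR with a correction for gene length (olive diamonds), with the median of all tested genes as a dashed line. The S100b estimate is 4.82 and 4.44 with the correction, the intervals of S100a8, S100a9 and S100a11 cross 0 in both fits, and that of S100a4 does so with the correction.

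Gene length moved with the result. The median exon length was 704.5 bp for the S100 genes and 3888 bp for all tested genes, and log2 fold change and log2 length had a Spearman's rho of −0.376 across tested genes (genes are not replicates). With a spline on length in each library, 5 of the 10 genes were called higher, against 9.59% of all tested genes called higher and 4.14% called lower, and the median of the members was 1.34. *S100b* kept a log2 fold change of 4.44 ± 0.424 (SE, adjusted p = 0.00822), and the call of *S100a10* was the one lost.

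Levels were compared between genes per length, as TPM (counts divided by summed exon length and scaled to the same total in each library). In YT-FF the most abundant S100 transcript was *S100a11*, at 1107 ± 243 TPM, followed by *S100a1* at 594 ± 45.5 TPM and *S100a10* at 368 ± 64.6 TPM (SD, n = 3). These 3 did not overlap in range. *S100a13* (182 ± 45.9 TPM) and *S100a6* (144 ± 10.1 TPM) overlapped, *S100a16* lay below them at 99.6 ± 10.1 TPM, and *S100a9*, *S100b* and *S100a8* overlapped near the bottom, between 1.78 and 47.5 TPM. *S100a4* had 2.82 ± 1.51 TPM, a lower limit that does not fix its place.

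The order in YT-AKO differed at the top and at *S100b*. *S100a1* ranked first at 1171 ± 245 TPM and *S100a11* second at 928 ± 96.0 TPM, and in each of the 3 libraries *S100a1* was the higher, whereas in each YT-FF library it was the lower. Fragments of *S100a11* shared with *Gm12854* were left out, so its level can be too low and this order is uncertain. Levels per length of *S100b* were 10.2, 9.47 and 21.0 TPM in YT-FF and 167, 258 and 271 TPM in YT-AKO. It ranked 7th, 9th and 7th of the 10 in the controls and 6th, 6th and 5th in YT-AKO, where its range overlapped those of its neighbours *S100a6* (310 ± 103 TPM) and *S100a16* (183 ± 58.1 TPM).

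The summed level of the 10 transcripts was 2542 ± 394 TPM in YT-FF and 3854 ± 875 TPM in YT-AKO (SD, n = 3). *S100b* made up 0.450%, 0.398% and 0.703% of this sum in the control libraries, and 5.25%, 5.32% and 7.67% in the libraries labelled YT-AKO. Every YT-AKO share lay above every control share, at the smallest two-sided p that an exact permutation test of 3 against 3 libraries allows (p = 0.1). *S100a1*, *S100a10* and *S100a11* together went from 81.3% ± 0.822 to 68.7% ± 4.09 of the sum (SD, n = 3, exact permutation p = 0.1).

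**Figure D3:**
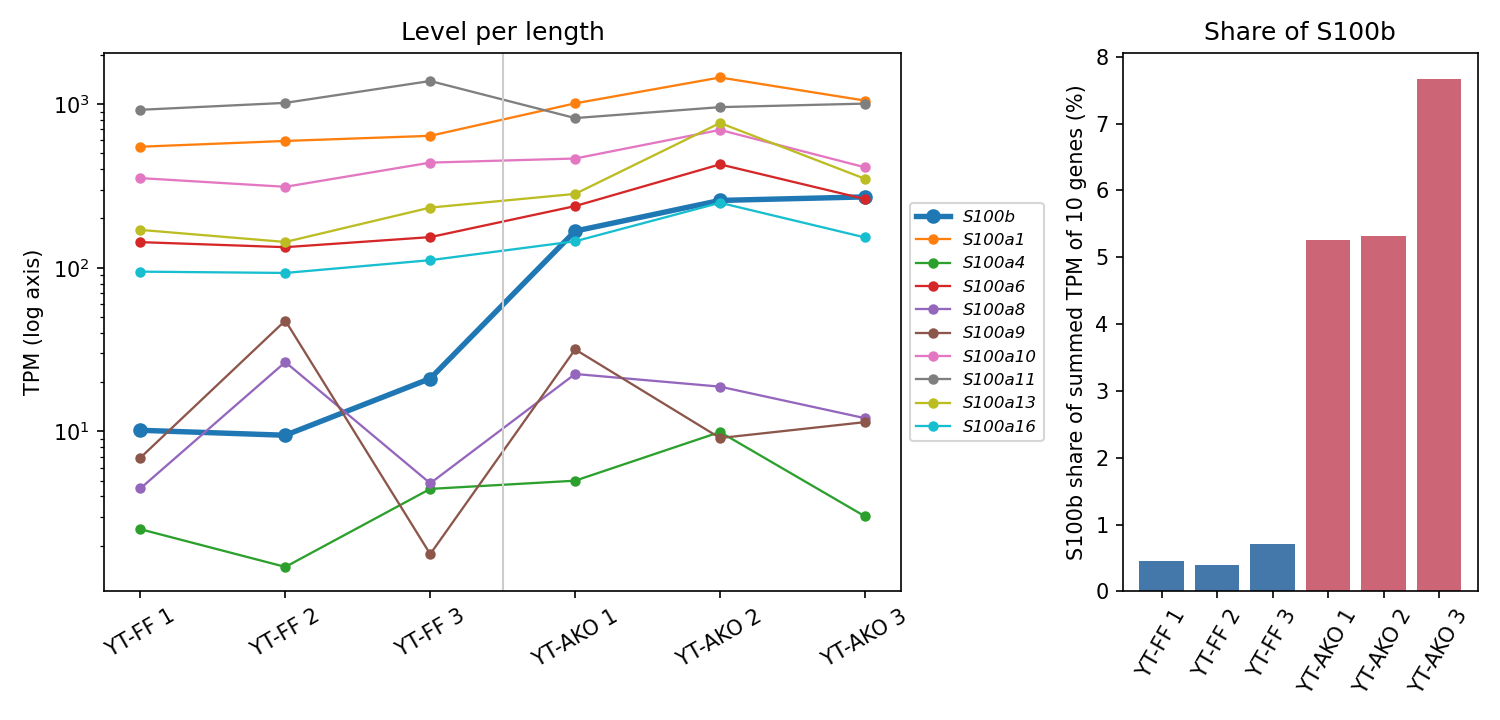
Left, TPM (log axis) of the 10 S100 genes by library, with lines joining the points of a gene for the eye only and a vertical line between YT-FF and YT-AKO. Right, the share of S100b in the summed TPM of the 10 genes as a bar for each library (%), at 0.703 or less in YT-FF and 5.25 or more in YT-AKO.

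The rise of *S100b* was then set against its paralogues within each library. The log2 ratio of its TPM to the sum of the other 9 was −7.79, −7.97 and −7.14 in YT-FF and −4.17, −4.15 and −3.59 in YT-AKO, values that do not depend on how the libraries are scaled. The groups did not overlap, and the difference of 3.66 had an exact permutation p of 0.1, the smallest possible. Set against each paralogue in turn, the ratio differed by between 2.92 (*S100a13*) and 4.40 (*S100a11*) on the log2 scale, or 7.58-fold to 21.2-fold. The groups did not overlap in these comparisons (exact permutation p = 0.1, adjusted over the 9 to 0.1125) except for *S100a9* (p = 0.2). All 9 ratios share *S100b* and are not separate results.

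Profiles over the 6 libraries were compared by the root mean square difference of log2(CPM + 0.1), each gene centred on its own mean, over 15179 genes with a mean of at least 1 CPM. Nearest to *S100b* were *Ucp1* (0.309), the uncoupling protein of thermogenic adipocytes, then *Cox8b* (0.487) and *Cox7a1* (0.585), subunits of cytochrome c oxidase made in brown fat and muscle. The processed pseudogene *Gm16418* (0.740) and the secreted phospholipase *Pla2g2e* (0.778) came next. *Ucp1* had 6.78, 3.69 and 9.84 CPM in YT-FF and 144, 395 and 243 CPM in YT-AKO, which follows the order of *S100b* in every library. These 6 points share the same libraries and the same difference between groups.

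Within the family the closest profiles were those of *S100a1* and *S100a16* (0.115), *S100a6* and *S100a16* (0.122) and *S100a1* and *S100a6* (0.125). *S100b* stood apart, with *S100a13* as its nearest relative at 1.50. *S100a8* and *S100a9* were 0.770 apart, and the genes nearest to *S100a8* were *F10* (0.482), the gene of coagulation factor X, *Lcn2* (0.508), the gene of lipocalin 2, and the processed pseudogene *Gm3375* (0.517). Nearest to *S100a1*, a gene picked for this search after its values were seen, were *Akr7a5* (0.0561), an aldehyde reductase, and *Ndufb5* (0.0605) and *Ndufs8* (0.0656), both subunits of respiratory complex I.

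**Figure D4:**
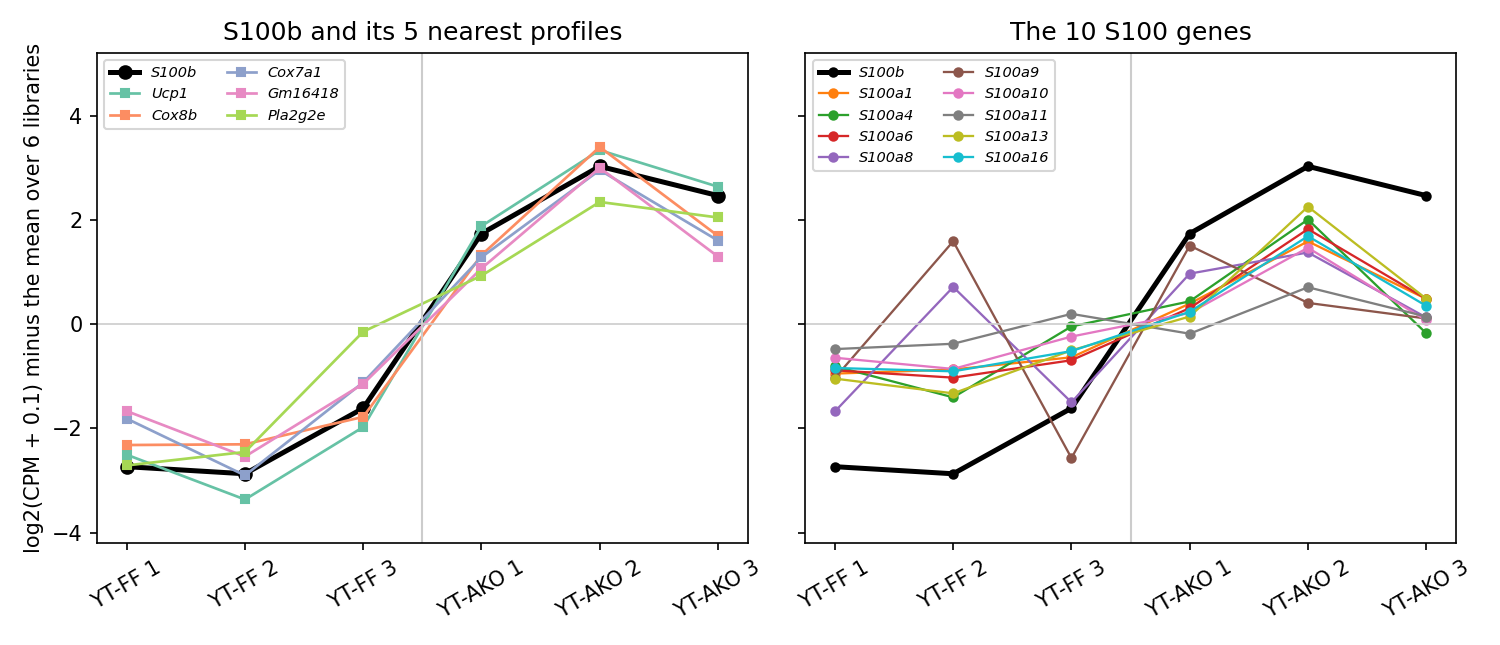
Log2(CPM + 0.1) minus the mean of each gene over the 6 libraries (y axis) by library (x axis), with lines joining the points of a gene for the eye only. Left, S100b with its 5 nearest profiles, of which Ucp1 is the closest at 0.309. Right, the 10 S100 genes, where S100b has the widest swing between the groups and S100a8 and S100a9 peak among the controls in YT-FF 2.

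Genes of binding partners, receptors and other calcium sensors were read against the 12.6% of all tested genes called higher and the 9.01% called lower. Of 11 partner genes tested, 2 rose, 1 fell and 8 did not pass the test, shares near those of all genes, with a median log2 fold change of 0.31. *Anxa5*, encoding annexin A5, rose (1.16, adjusted p = 0.0205 by edgeR), as did *Cacybp*, encoding calcyclin binding protein (0.59, adjusted p = 0.0362). In TPM *Anxa5* had a mean of 556 in YT-FF and 773 in YT-AKO, but *Cacybp* did not rise, at 86.5 and 83.7. *Ahnak*, a very large scaffold bound by S100A10, fell (−0.98, adjusted p = 0.0177), from 934, 884 and 897 CPM to 444, 442 and 486 CPM. That estimate is without the correction for gene length, with which 4.14% of all tested genes were called lower instead of 9.01%. Not called were *Myh9*, the myosin bound by S100A4 (−0.72, adjusted p = 0.112), *Anxa6* (0.37, adjusted p = 0.220) and *Anxa2*, the partner of S100A10 (0.35, adjusted p = 0.439).

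Receptors showed 1 rise among 8 tested genes and no fall with edgeR, although 2 were lower at an unadjusted p under 0.05 and DESeq2 called 1 of them. Their median log2 fold change was −0.24. *Bsg*, encoding basigin, a receptor for S100A9, went from 270.0, 251 and 345 CPM to 492, 607 and 481 CPM, a log2 fold change of 0.87 ± 0.200 (SE, adjusted p = 0.0271). *Ager*, encoding RAGE, was low, with 3.58, 3.60 and 4.53 CPM against 5.06, 8.37 and 3.78 CPM, overlapping groups and a log2 fold change of 0.56 (adjusted p = 0.251). *Cd36*, a scavenger receptor abundant in adipocytes, had a log2 fold change of 0.03 (adjusted p = 0.934) and *Mcam* one of −0.59 (adjusted p = 0.0604).

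Other EF-hand calcium sensors were higher in 3 of 13 tested genes and lower in none (0 at an unadjusted p under 0.05 and 0 with DESeq2), with a median log2 fold change of 0.40. Those called were *Calm2*, one of the calmodulin genes, *Pdcd6* and *Capns1*, the small calpain subunit. *Calm2* had a log2 fold change of 0.51 (adjusted p = 0.0480), while *Calm3* (0.43, adjusted p = 0.105) did not pass the test. Mean TPM did not rise for *Calm2* (383 in YT-FF and 344 in YT-AKO) or *Pdcd6* (73.5 and 71.7), but did for *Capns1* (443 and 525). Of 9 further S100 symbols, 7 were in the files and 1 passed the filter. This was *S100a7a*, with 13, 5 and 6 counts against 15, 21 and 11 and no call (adjusted p = 0.112). *S100a5* had 0 counts in all 6 libraries.

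Regulators that the study names for *S100b* were also measured. *Cebpb*, encoding the transcription factor C/EBPβ, rose from 86.9, 107 and 155 CPM to 392, 552 and 325 CPM without overlap, a log2 fold change of 1.86 ± 0.289 (SE, adjusted p = 0.0177). *Prdm16*, a coregulator of brown and beige fat genes, had 21.1, 27.2 and 19.5 CPM against 21.5, 21.3 and 13.1 CPM, with a log2 fold change of −0.28 (adjusted p = 0.413). The study reported from immunoblots that loss of *Yap* and *Taz* left PRDM16 and C/EBPβ unaltered. Those are protein levels, whereas the values here are RNA. With *Yap1* and *Wwtr1*, 2 of the 6 genes of this list rose and 1 fell with edgeR, with a median of 0.44. Of all tested genes, 12.6% were called higher and 9.01% lower. DESeq2 called 3 of the 6 higher and 1 lower, in a fit that called 18.1% of all genes higher and 14.3% lower.

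Markers of the cells that could carry S100 transcripts were read beside these results, and their counts against the same shares of all tested genes (12.6% higher and 9.01% lower). Schwann cell genes did not rise with *S100b*. Their summed level was 482 to 530 CPM in YT-FF and 331 to 436 CPM in YT-AKO. Of 14 tested genes none rose and 1, *Scn7a*, fell (median −0.33). *Scn7a* made up a large part of the sum, with 165, 163 and 188 CPM in YT-FF and 93.6, 85.6 and 90.1 CPM in YT-AKO. Of the 14 genes, 1 lay above and 2 lay below all controls without overlap, against 25.7% and 25.8% of tested genes. None was called higher with DESeq2 either, and 0 were higher at an unadjusted p under 0.05 by edgeR. *Sox10*, the transcription factor of this lineage, was not called (−0.31, adjusted p = 0.437). Beige and brown adipocyte genes rose in 7 of 9 cases with a median of 3.17, from a summed 176 to 265 CPM up to 1728 to 3667 CPM. *Ucp1* (5.27, adjusted p = 0.00782), *Cidea* (3.17, adjusted p = 0.00729) and *Dio2* (3.06, adjusted p = 0.0177) were among them. General adipocyte genes rose in 2 of 8 cases (*Lipe* and *Fabp4*, median 0.42), with summed levels of 10586 to 15777 and 17833 to 31655 CPM. DESeq2 called 3 of the 8 higher, against 18.1% of all genes. *Adipoq* was not called (0.43, adjusted p = 0.176). Of 4 tested brown depot markers none was called by edgeR or DESeq2, with 0 at an unadjusted p under 0.05 (median −0.15, summed 285 to 567 against 373 to 629.9 CPM), and *Zic1* was at 0 counts in every library.

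Neutrophil genes summed to 27.5 to 63.8 CPM in YT-FF and 34.0 to 51.8 CPM in YT-AKO, and none of 9 tested was called by edgeR (median −0.09). At an unadjusted p under 0.05, 1 was higher and 1 lower, and DESeq2 called 1 in each direction. *Ly6g* had 0, 2 and 0 counts in YT-FF and 0 in YT-AKO. *Ngp* had 10, 105 and 0 counts against 18, 14 and 22, highest in YT-FF 2, and *Camp* had 8, 43 and 7 against 19, 53 and 9, highest in YT-AKO 2. Macrophage genes rose in 3 of 10 cases (*C1qa*, *C1qb* and *Fcgr1*, median 0.39), from 1286 to 1459 up to 1889 to 2533 CPM. Fibroblast genes rose in 3 of 10 cases and fell in 1 (median 0.45, 4600 to 5659 against 5593 to 8258 CPM), and *Pdgfra* was not called (0.11, adjusted p = 0.806). DESeq2 called 5 of the fibroblast genes higher and 1 lower, in a fit that called 18.1% of all genes higher and 14.3% lower. The part of these cells in the levels of the S100 genes was not tested.

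Skeletal muscle genes, the usual site of *S100a1*, summed to 182 to 597 CPM in YT-FF and to 4059, 581 and 267 CPM in YT-AKO 1, 2 and 3. *Acta1* was the 1 called of 10 by edgeR (2.67, adjusted p = 0.0360, list median 2.26), and DESeq2 called 2 higher, against 18.1% of all genes. *S100a1* measured 251, 576 and 268 CPM in these YT-AKO libraries, and the part of muscle in its level was not tested. Epithelium genes were low (13.9 to 15.2 against 9.97 to 10.3 CPM, 1 of 4 tested lower, median −0.31), and *Krt5* was at 0. B and T cell genes fell in 4 of 10 cases (median −0.24, 1209 to 1494 against 818 to 1318 CPM), and endothelium genes in 1 of 8 (median 0.11, 692 to 772 against 644 to 1004 CPM). DESeq2 called 1 of the endothelium genes higher and 1 lower.

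**Figure D5:**
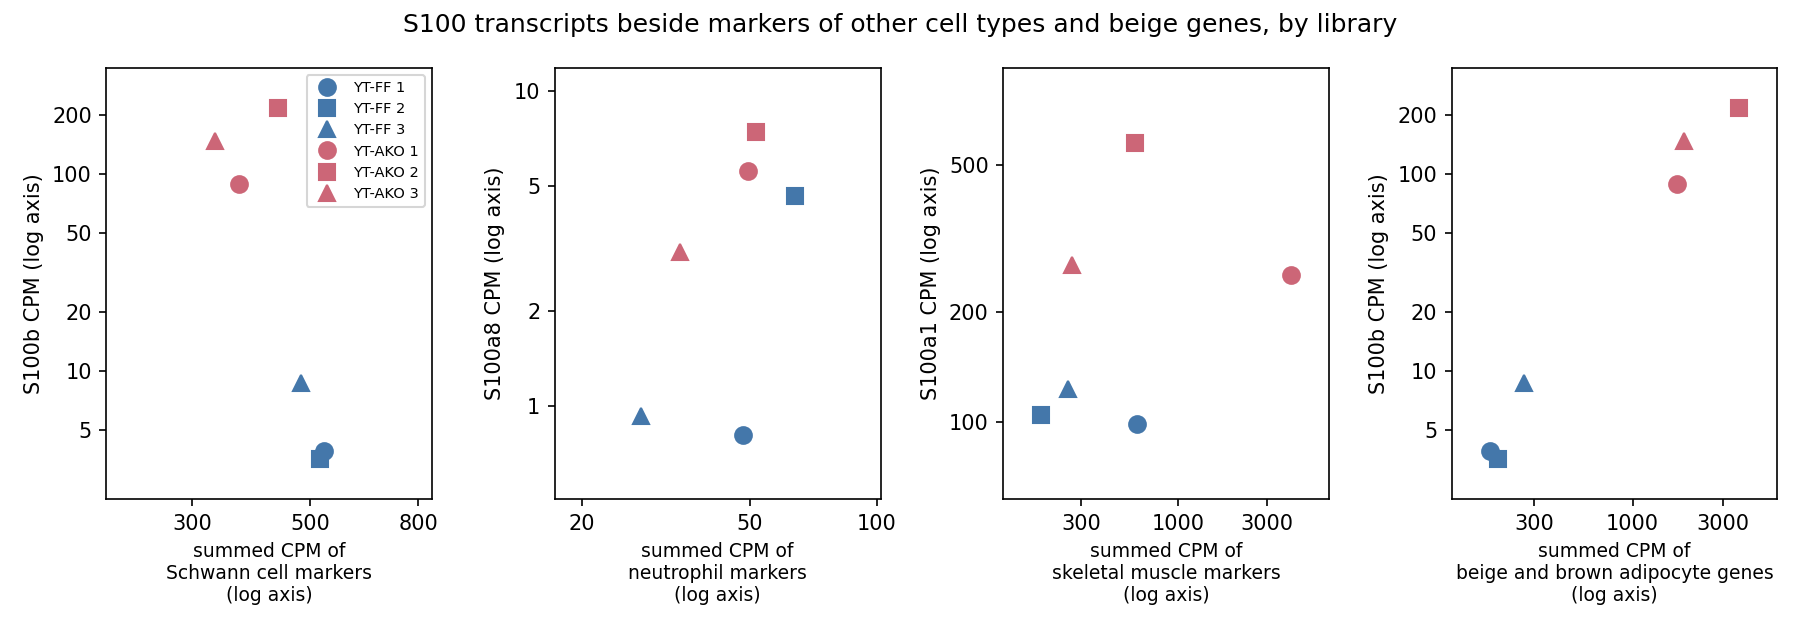
CPM of S100b, S100a8 and S100a1 (y, log axis) in each library against the summed CPM of Schwann cell, neutrophil, skeletal muscle and beige or brown adipocyte genes (x, log axis), with YT-FF in blue and YT-AKO in red. The YT-AKO points have high S100b beside Schwann cell sums of 331 to 436 CPM, below all controls, and beside beige and brown sums of 1728 CPM or more, above all controls. Scn7a is a large part of the Schwann cell sums, and 2 of the 14 tested Schwann cell genes lie below all controls.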

How the data were processed

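Raw counts of fragments per gene in scWAT of 3 YT-FF and 3 YT-AKO mice, grouped by the sample labels, were used. The authors aligned reads to mm10 (GRCm38) with HISAT2 and counted exons of GENCODE M25 with featureCounts 2.0.1 without regard to strand, and the deposited counts are neither normalized nor filtered. Fragments with several alignments or several genes were left out. Of 55401 genes, 55141 were matched by identifier to symbols of an earlier GENCODE release on the same build and 260 were not. Totals of 17740987 to 21838493 set the counting precision.

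Here counts were tested in R 4.3.3 with edgeR 4.0.16 (TMM, filterByExpr with minimum counts of 10 and 15 in total, quasi-likelihood test, Benjamini-Hochberg over 16807 genes). The coefficient of biological variation was 0.288. CPM used TMM factors and TPM summed exon lengths. Single values were compared by two-sided exact permutation tests in scipy 1.17.1. The test was checked on simulated data.

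The S100 genes and all lists were chosen with earlier results of these data known. Named genes were the members, *Yap1* and *Wwtr1*, called genes and the 2 most abundant others of the lists of S100 genes, partners and receptors, up to the first 3 of other lists, the nearest profiles (5 for *S100b*, 3 for *S100a8*) and the neighbours of *S100b*. Some genes that this rule names are not reported here. Other genes named (*Anxa2*, *Ager*, *Cebpb*, *Pdcd6*, *Capns1*, *Scn7a*, *Lipe*, *Fabp4*, *Fcgr1*, *C1qa*, *C1qb*, the pseudogenes sharing sequence and the profiles near *S100a1*) were picked after their values were seen. Alternatives were DESeq2 1.42.0, limma-voom (limma 3.58.1), 3 other normalizations, 2 filters, robust estimation, a block for the replicate number, corrections for length and GC content, and each library left out; limma-trend on log2(TPM + 0.1) and the ratio to each paralogue with libraries left out were added after the data were seen. Nothing in the labels says whether extraction or sequencing was done in batches.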

Additional observations from a re-analysis of the deposited data

How the results depend on the processing

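The count of S100 genes called higher was 6 and stayed at 5 or 6 under the other tests, normalizations, filters, robust estimation and corrections for length or GC content. With single libraries left out it ranged from 0 to 6, being 0 without YT-FF 1 and without YT-FF 2 and 1 without YT-FF 3, when 0%, 0% and 4.03% of all tested genes were called higher. The log2 fold change of *S100b* then ranged from 4.47 to 5.34, with 4.64 (adjusted p = 0.0870) without YT-FF 1 and 4.59 (adjusted p = 0.0787) without YT-FF 2. The median over the members ranged from 1.02 without YT-AKO 2 to 1.95 without YT-AKO 1. Same-numbered libraries had correlations of 0.139, −0.134 and −0.0911 in their deviations from the group means, so the numbers were not taken as pairs; with the replicate number as a block, edgeR called 1 member (*S100b*), and 1 with the block and length correction together, against 0.143% and 0.274% of all tested genes. Other calls of single members were lost in 32 cases without a change of sign. 2 estimates changed sign, that of *S100a9* to −0.022 without YT-AKO 1 (2.55 without YT-FF 2) and that of *S100a11* to −0.24 with limma-trend on log2(TPM + 0.1), which was added after the data were seen, and neither was called. In the limma-trend fit the median log2 fold change of all tested genes was −0.71. The log2 ratio of *S100b* to its 9 paralogues stayed between 3.47 and 3.91 above control with single libraries left out. The cause of these changes was not tested. Depth limits *S100a8* and *S100a9*, whose lowest libraries held 18 and 5 counts. 3 libraries per group limit exact permutation tests to p = 0.1.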
